A study of Drosophila melanogaster with 42 samples.

Results

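Trehalose is made, split and moved between tissues by a small set of gene products, and 7 genes were followed here in Drosophila melanogaster across metamorphosis with and without ERR. The 7 were taken by name from the count table, and all 7 were found among its 15038 genes: Tps1, CG5171 and CG5177 for synthesis, Treh and CG6262 for breakdown, and Tret1-1 and Tret1-2 for transport. All 7 also passed the filter on low counts that left 13672 genes for testing. RNA of whole flies was sequenced from poly(A)-selected libraries at 7 stages (WPP, then P1 to P4, then A1 and A6), with 3 libraries from controls and 3 from ERR mutants at each stage, 42 libraries in all. ERR is a nuclear receptor of the estrogen-related receptor group, and the series title concerns a switch toward glycolysis and lipid synthesis in adults. Both genotypes received heat on days 4 and 5 AEL, and the genotypes are described as differing by presence or absence of an hsFLP transgene, a heat-inducible recombinase. The labels used here give no allele, no sex and no number of animals per library, and they do not spell out the stage names or AEL. An effect of ERR and an effect of the transgene cannot be told apart. Whether the 3 libraries of each group are biological replicates (different cultures or animals) is not stated, so the p-values reflect the spread between these libraries only, which may be technical.

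Trehalose is the main circulating sugar of insects and is made chiefly in the fat body. Trehalose-6-phosphate synthase joins UDP-glucose to glucose-6-phosphate, a phosphatase then removes the phosphate, and in Drosophila Tps1 carries both kinds of domain. Trehalase splits the sugar into glucose in the tissues that use it, and facilitated transporters of the Tret1 family carry it across cell membranes.

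The 42 libraries held 4308848 to 7737140 counts. ERR itself was lower in the mutant libraries than in the control libraries at each of the 7 stages without overlap, and the difference passed the test at P4, A1 and A6 (log2 fold change -2.70, SE 0.19 at A6). Mutant replicate 1 at P1 stood apart: 8 testis transcripts summed to 1.89 CPM there and to 538 to 741 CPM in the other 5 libraries of that stage. CPM is the usual scaled count, here with TMM-adjusted library sizes. Adult libraries carried 2229 to 2739 CPM of those testis transcripts, and markers of females (yolk and eggshell protein genes) summed to 6.89 to 14.3 CPM. Because whole animals were sequenced, fewer cells of a type and less RNA per cell cannot be told apart.

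Along the control course, 1 to 5 of the 7 genes were called at each step. In controls, 4 of 7 passed the test from WPP to P1, where 46.7% of all genes tested did. The counts were 5 of 7 from P1 to P2 (44.8% of all genes), 4 from P2 to P3 (36.5%), 4 from P3 to P4 (37.5%), 4 from P4 to A1 (38.9%) and 1 from A1 to A6 (24.4%). A gene is called, or said to rise or fall, where edgeR's quasi-likelihood test gave a Benjamini-Hochberg adjusted p under 0.05 over all 13672 genes. The ratio of the highest to the lowest control stage mean was 96.8 for CG5171, 32.2 for CG5177, 24.97 for Tps1, 10.04 for Tret1-1, 6.56 for CG6262, 5.71 for Tret1-2 and 2.90 for Treh. The trehalase gene Treh was thus the steadiest of the 7 and a predicted phosphatase gene the most variable. The testis transcripts of control libraries summed to 296 to 349 CPM at WPP, 1101 to 2094 CPM at P4 and 2237 to 2251 CPM at A1. The part of testis and of the mix of sexes in the control steps was not tested.

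**Figure D1:**
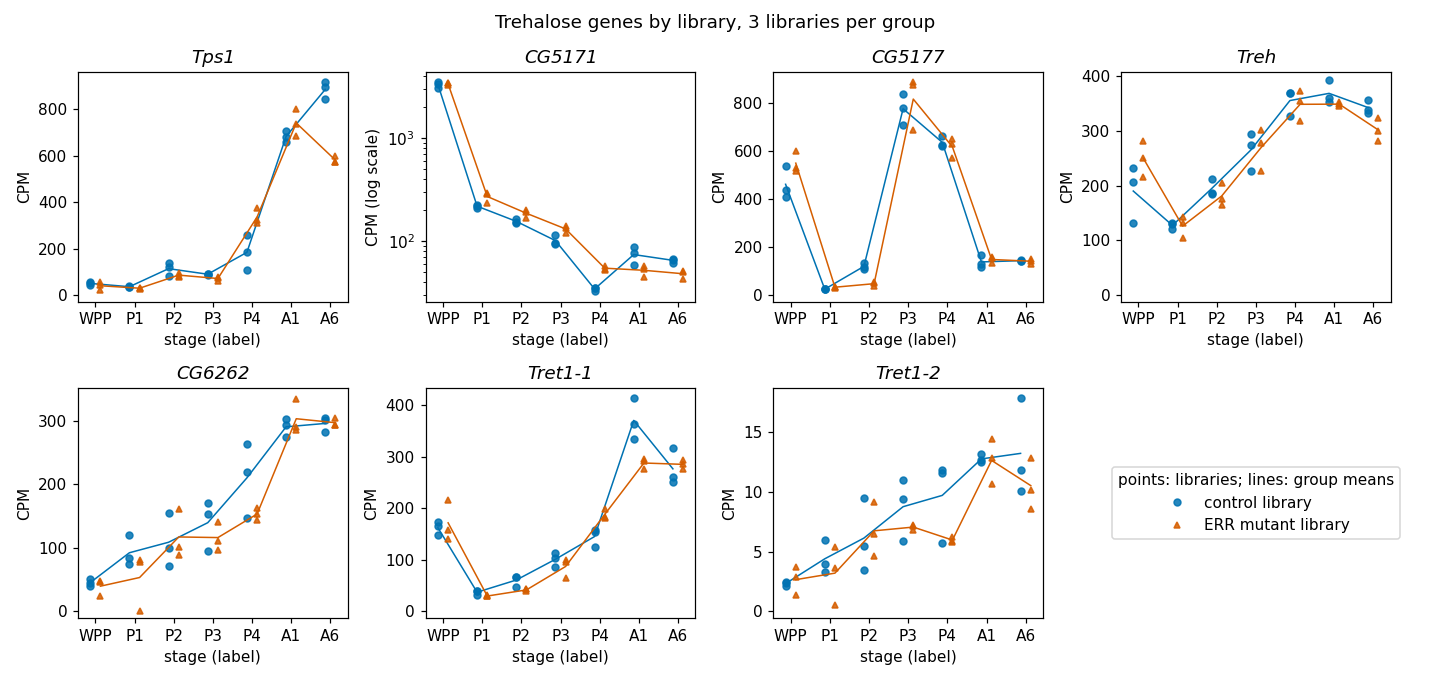
CPM of the 7 genes at the 7 stages, with 1 point for each of 42 libraries (circles, control; triangles, ERR mutant) and lines through the means of 3 libraries; the axis of CG5171 is logarithmic. CG5171 falls from 3091 to 3478 CPM in controls at WPP, CG5177 is high at WPP and again at P3 and P4, and Tps1 climbs to its highest levels at A1 and A6.

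Between genotypes, no member passed the test at WPP, P1 or P3, where 0.651%, 0.797% and 0.446% of all genes were called. At unadjusted p under 0.05 there were 2, 3 and 1 members at those stages, and DESeq2 called 0, 1 and 0. At P2, CG5177 and Tret1-1 were lower in mutants, 2 of 7 beside 8.79% of all genes lower and 11.6% called in either direction. At P4, Tps1 and CG5171 were higher, 2 of 7 beside 0.453% of all genes higher and 0.856% called. CG5171 was lower at A1, 1 of 7 beside 1.97% of all genes lower and 2.90% called, and at A6, 1 of 7 beside 5.28% lower and 11.4% called. The groups of 3 libraries did not overlap for 0, 4, 3, 2, 3, 2 and 3 members from WPP to A6, beside 12.8%, 14.1%, 22.9%, 9.41%, 13.9%, 23.2% and 37.7% of all genes.

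The mean genotype effect over 7 stages was called by edgeR's test for 0 of 7 members (7.18% of all genes), with CG5171 and Tret1-1, 2 of 7, at unadjusted p under 0.05. The size of the genotype difference varied among stages for 4 of 7 (12.4% of all genes). These were CG5177 (adjusted p = 2.7e-07), CG5171 (adjusted p = 7.2e-06), Tps1 (adjusted p = 0.0127) and Tret1-1 (adjusted p = 0.0266), the last of which was lost when libraries were scaled by DESeq2's size factors (adjusted p = 0.0599) or by the deposited factors (adjusted p = 0.0966) and without any 1 of 5 libraries of P2 and P4 (adjusted p up to 0.0685).

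**Figure D2:**
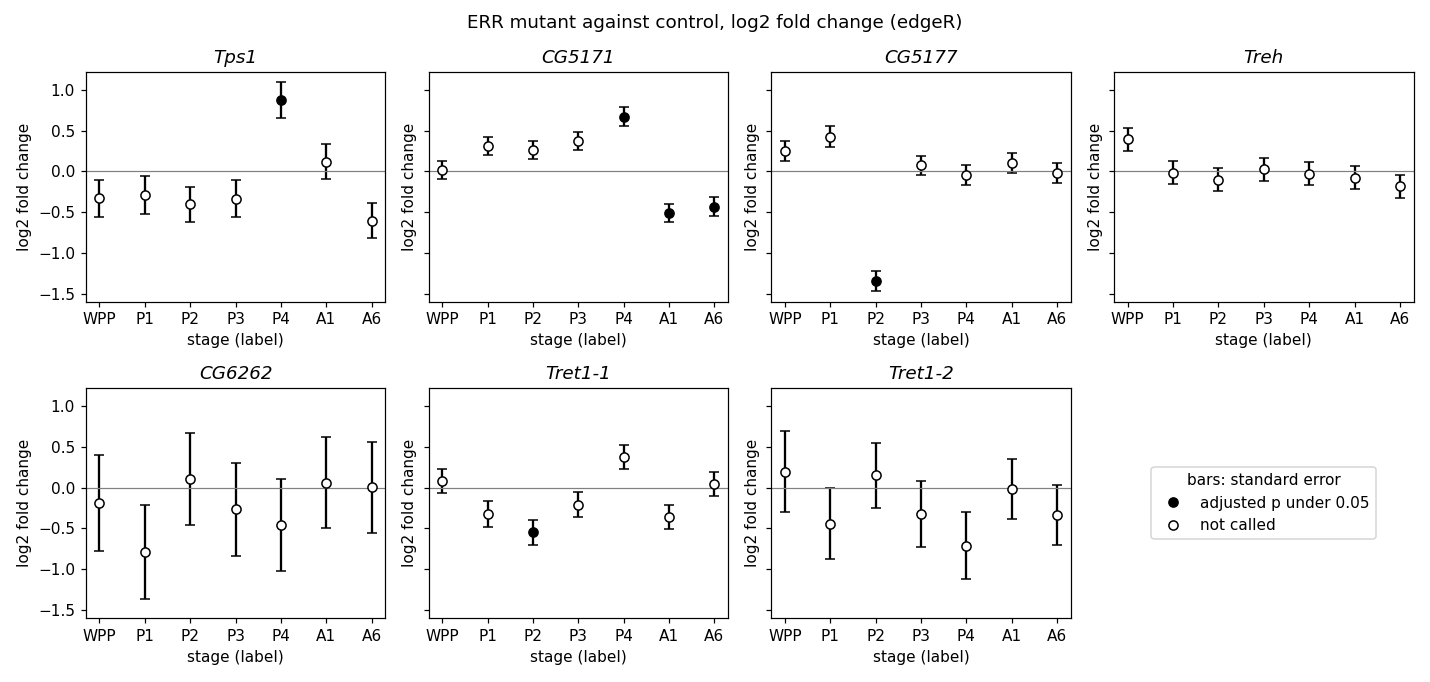
Log2 fold change of ERR mutant against control at each stage for the 7 genes, with bars of 1 standard error; filled points passed the test and open points did not. The filled points are Tps1 at P4, CG5171 at P4, A1 and A6, CG5177 at P2 and Tret1-1 at P2, and the bars of CG6262 and Tret1-2 are the widest.

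Synthesis begins with Tps1 (FBgn0027560, chromosome 2L, 4388327 to 4392778, plus strand, dm6), the trehalose-6-phosphate synthase. In control libraries it was low before P2 and rose in steps to the adult. Its 3 control libraries held 54.4, 51.5 and 43.5 CPM at WPP and 35.7, 38.1 and 32.6 CPM at P1. They held 82.9, 119 and 138 CPM at P2 and 86.7, 89.1 and 92.4 CPM at P3. The increase from P1 to P2 passed the test (log2 fold change 1.68, SE 0.23), and the stages before it were all below those after it. At P4 the control libraries spread widely, at 109, 184 and 258 CPM. At A1 they held 661, 681 and 708 CPM and at A6 895, 917 and 847 CPM. The steps from P3 to P4 (1.04, SE 0.22) and from P4 to A1 (1.90, SE 0.22) were called, and that from A1 to A6 was not (0.37, SE 0.22, adjusted p = 0.243). The last step, whose libraries do not overlap, was called with the 6 compared libraries alone (adjusted p = 2.4e-04), as was the step from WPP to P1, which was not called otherwise (adjusted p = 2.4e-04).

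In mutants Tps1 was already higher than in controls at P4 but ended lower at A6. The mutant libraries held 377, 323 and 309 CPM at P4, above all 3 control libraries. The difference was 1.83-fold (log2 fold change 0.87, SE 0.22, adjusted p = 0.0456). At A1 the mutant libraries held 736, 801 and 687 CPM and overlapped the controls (log2 fold change 0.12, 95% interval -0.32 to 0.56). At A6 they held 598, 574 and 573 CPM, all below the lowest control library. That 1.52-fold difference did not pass the test (log2 fold change -0.61, SE 0.22, adjusted p = 0.0648), and it did so with DESeq2's size factors, with DESeq2, with the deposited scaling factors, with the 6 A6 libraries alone (adjusted p = 6.5e-07) and without mutant P1 replicate 1 (adjusted p = 0.0441). The P4 call was the less firm of the pair: it was lost without control replicate 1 or 2 or any 1 of the 3 mutant libraries, with adjusted p between 0.00271 and 0.429 over the libraries left out, with the 6 P4 libraries alone (adjusted p = 0.355) and with no filter on low counts. Before P4 the log2 fold changes lay between -0.41 and -0.29, uncalled at each stage, with no overlap of the groups at P1 and P3.

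Some sex-biased transcripts moved with Tps1 at P4. The control libraries with 109, 184 and 258 CPM of Tps1 held 2094, 1667 and 1101 CPM of the 8 testis transcripts and 456, 365 and 207 CPM of roX1, a noncoding RNA of male dosage compensation. Their values of osk, an oocyte mRNA picked after its values were seen, were 1.97, 9.52 and 30.4 CPM. The mutant libraries lay toward the third control library, with 1201 to 1327 CPM of the testis transcripts, 240 to 258 CPM of roX1 and 15.7, 20.4 and 23.7 CPM of osk. Of 5 accessory gland genes of males found in the count file, 4 were lower in mutants at P4, where 0.856% of all genes were called. The 5 summed to 98.2 to 268 CPM in controls beside 40.5 to 63.0 CPM. Of 2 tested female genes Yp3 was higher, with means of 3.25 CPM in controls and 8.10 CPM in mutants. Means of the other female genes found were lower in mutants. These were Yp1 (0.69 and 0.30 CPM), Yp2 (0.52 and 0.15 CPM) and Cp15 (1.55 and 1.30 CPM). The control libraries of A1 held 0 CPM of osk and 2237 to 2251 CPM of the testis transcripts. The part of the mix of sexes in the P4 difference, and in the control steps to and from P4, was not tested. Of genes that rose in controls both from P3 to P4 and from P4 to A1, as Tps1 did, 2.77% were called higher in mutants at P4. By the profile of 6619 genes that changed in controls, mutant libraries at P4 stood at 4.87 to 5.00 on the control course. On that course P4 is 5, and the control libraries lay between 4.94 and 5.02.

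Other tissue lists differed at A6 beside Tps1. At that stage 5.28% of all genes were lower in mutants and 11.4% were called in either direction. Of 7 fat body genes, 3 were lower in mutants (Lsp1beta, Lsp2 and apolpp), the list summed to 1838 to 2300 CPM in the control libraries beside 565 to 613 CPM in the mutant libraries, and Fbp1 was at 0 in all 6 libraries. Nearly all of that sum was apolpp, the precursor of the main lipid carrier of the haemolymph, at 2044 ± 220 and 593 ± 27.5 CPM (mean ± SD, n = 3). Midgut proteases and amylase summed to 5889 to 6337 CPM in the control libraries and to 3080 to 3900 CPM in the mutant ones, with 3 of 6 lower. Accessory gland genes summed to 3604 to 3943 CPM beside 1491 to 2194 CPM in mutants, with 4 of 5 lower. Muscle genes went the opposite way, at 3262 to 3547 and 5955 to 6694 CPM, with 4 of 6 higher. At A1 none of those 4 lists had a called gene, and the fat body sums overlapped at 1301 to 2418 and 1312 to 2206 CPM. Their part in the A6 values of Tps1 and CG5171 was not tested.

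CG5171 (FBgn0031907, chromosome 2L, 7401335 to 7404727, plus strand, dm6) is predicted from its sequence to be a trehalose phosphatase. It had the most counts of the members at WPP and fell at each later step to P4. The control libraries held 3091, 3365 and 3478 CPM at WPP and 217, 211 and 226 CPM at P1, a 15.2-fold fall (log2 fold change -3.93, SE 0.12). They held 164, 154 and 148 CPM at P2, 92.5, 95.9 and 114 CPM at P3 and 34.8, 32.5 and 35.3 CPM at P4. Each of these steps was called, and no later library overlapped the stage before it. From P4 to A1 the gene rose 2.16-fold to 76.1, 87.1 and 58.3 CPM, and at A6 the libraries held 65.5, 67.6 and 61.6 CPM, a step called only without control A1 replicate 3 among the alternatives run (adjusted p = 0.0377).

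For CG5171 the sign of the genotype difference turned between P4 and A1. At WPP the mutant libraries held 3401, 3419 and 3245 CPM and overlapped the controls (log2 fold change 0.02, 95% interval -0.20 to 0.24). At P1, P2 and P3 they held 232 to 290, 169 to 199 and 119 to 138 CPM, in each case above all 3 control libraries. These differences of 1.24-fold, 1.20-fold and 1.30-fold were not called (adjusted p = 0.239, 0.133 and 0.259), although DESeq2 called that at P1 (adjusted p = 0.00699), and DESeq2, DESeq2's size factors and the deposited factors called that at P2 (adjusted p = 0.0191, 0.0473 and 0.0387). At P4 the mutant libraries held 57.5, 52.1 and 53.8 CPM, a 1.59-fold higher level (log2 fold change 0.67, SE 0.12, adjusted p = 0.00113). With the 6 P4 libraries alone the adjusted p was 0.0574.

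In both adult stages CG5171 was lower in mutants than in controls. At A1 the mutant libraries held 54.0, 57.3 and 44.4 CPM, all below the lowest control library, which was close at 58.3 CPM. The fall of 1.42-fold was called (log2 fold change -0.51, SE 0.11, adjusted p = 0.00773) but was lost with the 6 A1 libraries alone (adjusted p = 0.121) and without control replicate 1, control replicate 2 or mutant replicate 3 (adjusted p up to 0.132). At A6 the mutant libraries held 51.1, 42.7 and 50.4 CPM, 1.35-fold lower (log2 fold change -0.43, SE 0.11, adjusted p = 0.00917), which among the alternatives run was lost without mutant replicate 2 (adjusted p = 0.0949). Haemocyte genes at A1 summed to 135 to 171 CPM in control libraries beside 84.7 to 111 CPM in mutant ones. Hml, 1 of 5, was lower, beside 1.97% of all genes. The part of the haemocyte genes in the A1 value was not tested. The effect at A1 and A6 minus the effect at P1 to P4 was -0.88 on the log2 scale (SE 0.10, adjusted p = 3.1e-07), and CG5171 was the sole member called in that comparison (4.83% of all genes were). It kept its call in all 42 fits that left out a library. CG5171 and CG12374 were the 2 genes of 13672 (0.0146%) that were called higher at P4 and lower at both A1 and A6. That pattern was taken from the calls of CG5171 itself, so the share is a description and no test. Only 62 genes were called higher at P4, and 134 were called lower at both A1 and A6. Among genes that fell in controls from P3 to P4, as CG5171 did, 0.690% were called higher in mutants at P4.

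CG5177 (FBgn0031908, chromosome 2L, 7405227 to 7408600, plus strand, dm6), another predicted trehalose phosphatase, starts 499 bases downstream of CG5171. Unlike its neighbour it had a pair of peaks, at WPP and again at P3 and P4. The control libraries held 407, 437 and 538 CPM at WPP and 22.96, 24.2 and 24.97 CPM at P1, a fall of 19.1-fold (log2 fold change -4.26, SE 0.14). They then rose 4.94-fold to 108, 132 and 117 CPM at P2 and 6.52-fold to 780, 836 and 710 CPM at P3. At P4 they held 619.7, 662.8 and 623.5 CPM, a step that among the alternatives run was called only with the 6 compared libraries alone (adjusted p = 0.0118) or without control P3 replicate 3 (adjusted p = 0.0417). The gene fell 4.62-fold to 118, 130 and 165 CPM at A1 and stood at 142, 146 and 140 CPM at A6. Over the 14 group means of log2 CPM, the levels of the neighbours CG5171 and CG5177 had a Pearson r of 0.06, given as a description.

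At P2 the rise of CG5177 was smaller in mutants. The mutant libraries held 53.6, 38.05 and 49.2 CPM, all far below the lowest control library at 108 CPM. The difference was 2.54-fold (log2 fold change -1.34, SE 0.13, adjusted p = 1.6e-09) and was called in all 7 fits that left out a library and in all 5 other alternatives. It was limited in time: at P3 the mutant libraries held 886, 875 and 686 CPM and overlapped the controls (log2 fold change 0.07, 95% interval -0.17 to 0.32). At P4, A1 and A6 the groups overlapped as well, with log2 fold changes between -0.04 and 0.10. At P1 the mutant libraries held 29.9 to 33.8 CPM, all above the controls but not called (log2 fold change 0.42, SE 0.13, adjusted p = 0.149).

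By the profile of 6619 genes that changed in controls, mutant libraries were behind the control course at P2. On a scale where P1 is 2 and P2 is 3, they stood at 2.84, 2.75 and 2.80, and the control libraries at 3.04, 3.02 and 2.96. Of 1099 genes that rose in controls both from P1 to P2 and from P2 to P3, as CG5177 and Tret1-1 did, 38% were called lower in mutants at P2. Muscle genes, which rise over the same stages, summed to 7927 to 9071 CPM in control libraries and to 4315 to 5948 CPM in mutant ones. Of 6 such genes 4 were lower, beside 8.79% of all genes. Sums of 3 genes of male dosage compensation were higher in mutants at P2 (163 to 323 CPM in controls beside 346 to 532 CPM) and sums of 4 female genes lower (5.73 to 9.19 beside 3.55 to 5.02 CPM), with 0 genes of either list called, while the testis sums overlapped at 518 to 1147 and 724 to 1292 CPM. The part of this offset and of the mix of sexes in the values of CG5177 and Tret1-1 was not tested. CG5177 shares 68 exonic bases (6.06% of its own) with CG5181 on the opposite strand, which at P2 differed in the other direction without being called (log2 fold change 0.36, adjusted p = 0.0503).

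Breakdown is the task of Treh (FBgn0003748, chromosome 2R, 21074018 to 21088945, plus strand, dm6), the trehalase that splits trehalose into glucose. It had the narrowest range of the 7 in controls. Over the 3 control libraries it was 132 to 231 CPM at WPP, 121 to 131 CPM at P1, 185 to 213 CPM at P2 and 227 to 294 CPM at P3. At the later stages it stood at 328 to 370 CPM at P4, 353 to 394 CPM at A1 and 333 to 357 CPM at A6. It fell from WPP to P1 (log2 fold change -0.58, SE 0.14) and rose at each of the next 3 steps, by 1.53-fold, 1.36-fold and 1.34-fold. Neither step after P4 was called, the call from P2 to P3 was lost without control P2 replicate 2 or P3 replicate 1 (adjusted p up to 0.0770), and that from P3 to P4 without control P3 replicate 3 or P4 replicate 2 (adjusted p up to 0.107).

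Genotype left Treh uncalled at all 7 stages. The mutant libraries ranged over 217 to 281 CPM at WPP, 104 to 143 CPM at P1, 165 to 204 CPM at P2, 227 to 303 CPM at P3, 318 to 373 CPM at P4 and 346 to 353 CPM at A1. At each of these stages they overlapped the controls. At A6 the mutant libraries held 282, 324 and 300 CPM, just below the lowest control library at 333 CPM. The log2 fold change there was -0.18 with a 95% interval of -0.47 to 0.10, and it was called with the 6 A6 libraries alone (adjusted p = 0.0411). The mean effect over 7 stages had a 95% interval of -0.11 to 0.11. Treh shares 560 exonic bases (12.8% of its own) with Rbpn-5 on the opposite strand, and the strand setting of the counting was not given in the sources used here.

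CG6262 (FBgn0034121, chromosome 2R, 16359730 to 16363524, plus strand, dm6) is a predicted second trehalase. Its control libraries held 40.2 to 50.05 CPM at WPP, 73.9 to 119 CPM at P1, 71.5 to 155 CPM at P2, 95.02 to 170 CPM at P3, 147 to 264 CPM at P4, 275 to 303 CPM at A1 and 282 to 304 CPM at A6. Replicates at P1 to P4 spread widely, and adult replicates lay close together. No genotype difference was called for CG6262, and of the control steps that from WPP to P1, which was without overlap, was called with the 6 compared libraries alone (adjusted p = 0.00717) and under no other alternative run. Its SE of 0.56 to 0.59 between genotypes leaves 95% intervals of more than 1 log2 unit to each side, as from -1.13 to 1.14 at A6. The spread behind these intervals was estimated over all 14 groups. At A6 itself the libraries lay close together, at 282 to 304 CPM in controls and 294 to 304 CPM in mutants.

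The level of CG6262 followed testis transcripts from library to library. In 41 of 42 libraries it was 11.3% to 16.1% of the sum of the 8 testis transcripts, while that sum itself ranged from 198 to 2739 CPM. In mutant P1 replicate 1, where the testis sum was 1.89 CPM, CG6262 had 0 counts, which allows up to 0.405 CPM at 3 counts. The other mutant libraries of P1 held 78.2 and 81.1 CPM. As a description, deviations from the group means (log2 CPM) of CG6262 and of the testis sum had a Pearson r of 0.99 over 42 libraries and of 0.98 over the 39 outside the mutant P1 group. Both measures share each library's scaling, as do the same correlations of 0.72 and 0.80 for Tret1-2. Over the 39 libraries the same measure was -0.68 for Tret1-1, -0.67 for Tps1, -0.42 for CG5177, -0.41 for Treh and 0.01 for CG5171. Over 42 libraries it was -0.25, -0.18, 0.04, 0.22 and 0.35 in that order. The genes whose course over the 14 group means was most like that of CG6262 were CG1979 and CG17666, each at a Pearson r of 0.999.

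**Figure D3:**
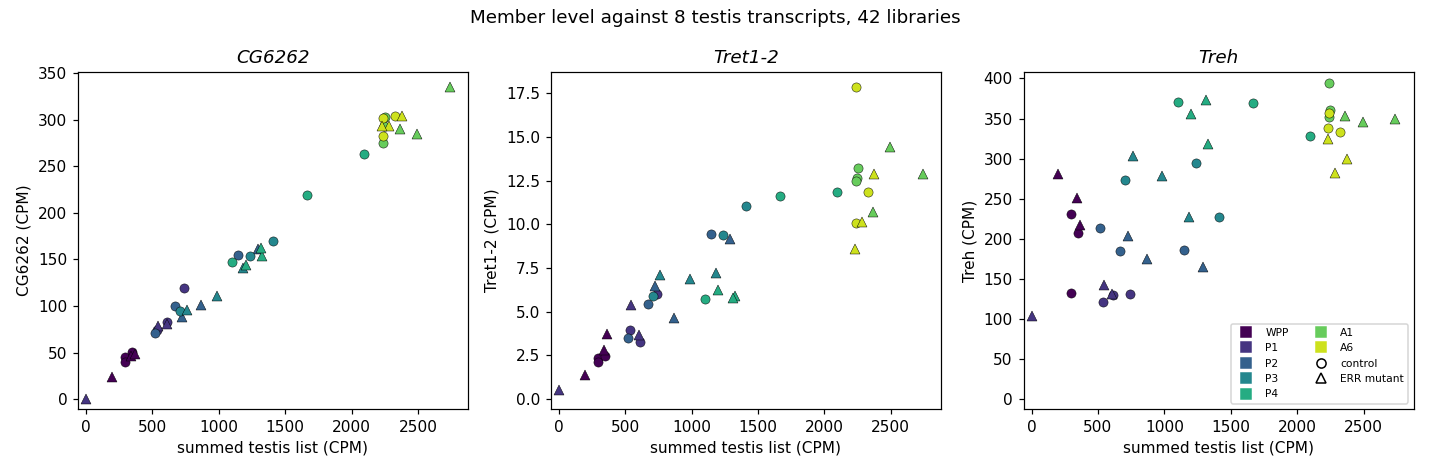
CPM of CG6262, Tret1-2 and Treh against the summed CPM of 8 testis transcripts in 42 libraries (colour, stage; circles, control; triangles, ERR mutant). CG6262 lies along a line at 11.3% to 16.1% of the testis sum, and the point near 0 on the horizontal axis is mutant P1 replicate 1.

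Transport is represented by neighbours on chromosome 2R, Tret1-1 (FBgn0050035, 11665768 to 11674782, plus strand, dm6) and Tret1-2 (FBgn0033644, 11675935 to 11678014, plus strand, dm6). Tret1-1 encodes a facilitated trehalose transporter of several tissues, including glia, and Tret1-2 is its paralog 1152 bases downstream. Both lie within Roc2 on the opposite strand and share no exonic base with it. Reads common to both paralogs could be split between them, so levels of Tret1-2 in particular are uncertain.

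Tret1-1 fell after WPP, recovered through P4 and was highest at A1. The control libraries held 165, 147 and 174 CPM at WPP and 31.2 to 40 CPM at P1, a 4.39-fold fall (log2 fold change -2.13, SE 0.16). They rose to 47.3, 66.9 and 67.4 CPM at P2, 103, 114 and 85.4 CPM at P3, 124, 155 and 157 CPM at P4 and 414, 364 and 334 CPM at A1. All 4 of these rises were called, the last being 2.56-fold, and that from P3 to P4 was lost without control P3 replicate 3 (adjusted p = 0.0513). From A1 to A6 it fell 1.34-fold to 318, 261 and 251 CPM (log2 fold change -0.42, SE 0.15, adjusted p = 0.0348). That fall lost its call with DESeq2's size factors (adjusted p = 0.0542), with the deposited scaling factors and without control A1 replicate 1 or 2 or control A6 replicate 2 or 3 (adjusted p up to 0.196).

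In mutants the P2 level of Tret1-1 was lower. The mutant libraries held 43.2, 38.7 and 42.2 CPM, below all 3 control libraries. The fall was 1.46-fold (log2 fold change -0.55, SE 0.16, adjusted p = 0.0166). It lost its call without control replicate 2, control replicate 3 or mutant replicate 2 (adjusted p up to 0.0926), with the deposited scaling factors and with the 6 P2 libraries alone (adjusted p = 0.106). At 3 other stages the groups did not overlap but the difference was not called. These were P1, with 28.6 to 30.5 CPM in mutants (log2 fold change -0.32, adjusted p = 0.483), P4, with 182 to 198 CPM (0.37, adjusted p = 0.341), and A1, with 277 to 296 CPM (-0.36, adjusted p = 0.232). The sign thus differed among stages, and at A6 the mutant libraries held 293, 275 and 287 CPM, inside the control range. The part of the mix of sexes in the P4 values of Tret1-1 was not tested.

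Tret1-2 had the lowest mean of the members in all 14 groups, and no step or genotype difference was called for it. Its control libraries held 2.15 to 2.47 CPM at WPP, 3.25 to 6.01 CPM at P1, 3.49 to 9.46 CPM at P2, 5.88 to 11.03 CPM at P3, 5.70 to 11.8 CPM at P4, 12.5 to 13.2 CPM at A1 and 10.1 to 17.9 CPM at A6. Mutant libraries overlapped the controls at each stage, at 1.37 to 3.74 CPM at WPP and 8.57 to 12.9 CPM at A6. At WPP the 3 control libraries rest on 46 counts of Tret1-2 in all. At P4 the mutant libraries were close together at 5.90, 6.23 and 5.78 CPM, near control replicate 3 at 5.70 CPM and below the other control libraries at 11.8 and 11.6 CPM (log2 fold change -0.71, 95% interval -1.55 to 0.12). The control libraries of Tret1-2 at P4 thus fell in the same order as their testis sums.

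Levels can be compared between genes only per transcript length, for which the deposited FPKM values were used. The leading member changed along the course. At WPP CG5171 led in controls with 2821 ± 221 FPKM (mean ± SD, n = 3), ahead of CG5177 at 478 ± 82.2 FPKM, and Tps1 stood at 16.1 ± 1.55 FPKM. At P3 and P4 CG5177 led, with 905 ± 72.4 and 766 ± 20.8 FPKM. At A1 and A6 Tps1 led, with 274 ± 12.3 and 366 ± 11.6 FPKM. The same gene led in mutants at each stage, and Tret1-2 was last in all 14 groups, at 1.36 to 9.88 FPKM in controls.

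The order between these ends depended on the stage and was partly within the spread. In controls at A1, Tret1-1 (178 ± 16.2 FPKM), CG5177 (173 ± 33.7 FPKM), Treh (150 ± 10.7 FPKM) and CG6262 (137 ± 5.21 FPKM) followed each other with the means of neighbours less than the sum of their SDs apart. At P2, CG5171 (145 ± 11.9 FPKM) and CG5177 (129 ± 14.4 FPKM) were likewise not separated in controls. In mutants at P2 they were, at 181 ± 10.2 and 50.6 ± 6.81 FPKM. The FPKM ratio of CG5171 to CG5177 at P2 was 0.99 to 1.34 in control libraries and 3.35 to 3.93 in mutant libraries.

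**Figure D4:**
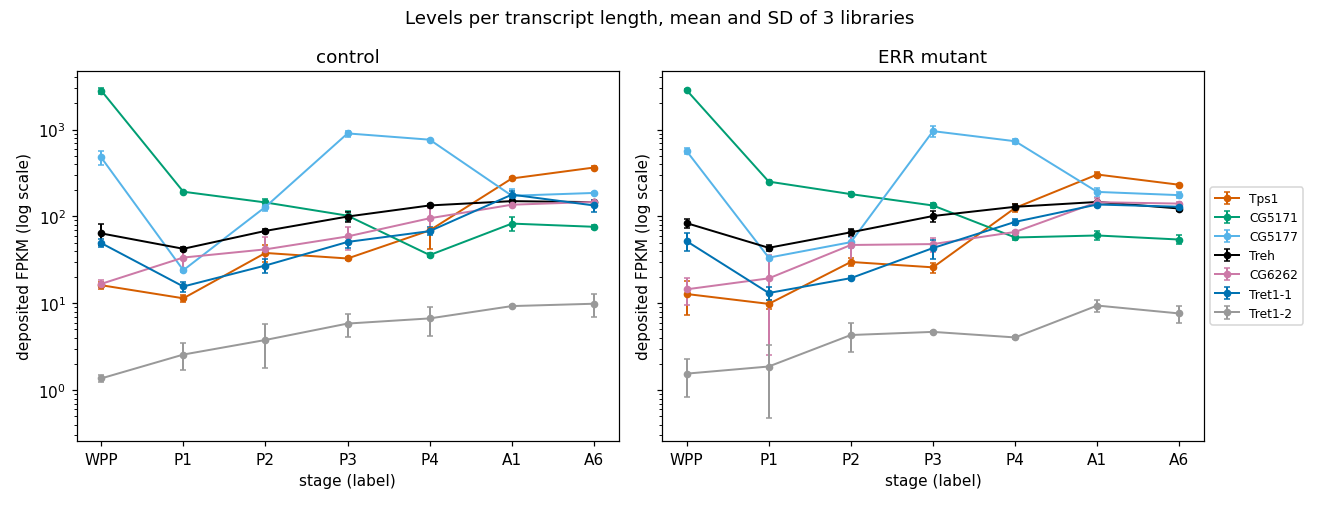
Deposited FPKM of the 7 genes by stage on a logarithmic axis, controls in the left panel and ERR mutants in the right, as means of 3 libraries with SD. CG5171 has the highest mean at WPP, P1 and P2, CG5177 at P3 and P4 and Tps1 at A1 and A6 in both panels, although CG5171 and CG5177 are not separated in controls at P2, and Tret1-2 is lowest in all 14 groups.

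The balance of synthase to trehalase transcript followed from these courses. The FPKM ratio of Tps1 to Treh was 0.20 to 0.38 in control libraries at WPP and 0.24 to 0.28 at P1, and it reached 2.43 to 2.62 at A6. The groups did not overlap at 5 stages, and no share over other gene pairs was computed to set beside that count. For the genes taken singly, Tps1 at P4 was the sole genotype call, and at WPP both overlapped. In mutants the ratio was lower at WPP, at 0.09 to 0.19, and at P3, at 0.25 to 0.27 beside 0.29 to 0.40 in controls. It was higher at P4, at 0.84 to 1.20 beside 0.33 to 0.70, and narrowly so at A1, at 1.92 to 2.27 beside 1.77 to 1.90. At A6 it was lower again, at 1.72 to 2.07. These ratios were not tested.

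Each member had its own nearest genes over the 14 group means, among 11031 genes with a mean of at least 5 CPM. By Pearson r of log2 CPM these were CG11309 and CG5867 for Tps1 (0.98 for both), Acph-1 and CG15756 for CG5171 (0.99 for both), and CG8888 and GluRIID for CG5177 (0.98 and 0.96). They were Nc73EF and CG5023 for Treh (0.97 for both), alpha-Est5 and CG14857 for Tret1-1 (0.98 for both), and Dgk and CG43206 for Tret1-2 (0.99 for both). No member was among the 2 nearest of another. Among the members themselves the highest values were 0.94 for CG6262 with Tret1-2 and 0.87 for Treh with Tret1-1.

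Some of the genes that supply the synthase with its substrates were lower in mutants. Of 6 gene names listed for hexose phosphate and UDP-glucose supply, 5 were in the table (Pgm was, Pgm1 was not). Of these 5 genes, 4, 2, 4, 3, 3, 3 and 3 were lower in mutants from WPP to A6, none higher. Of all genes, 0.651%, 0.797%, 11.6%, 0.446%, 0.856%, 2.90% and 11.4% were called in either direction at those stages. Pgm and Pgi were lower at all 7 stages and UGP at the 5 from P2, whereas the hexokinase gene Hex-A was called at WPP and P2 and Hex-C at WPP. Hex-C was low at WPP, with means of 1.85 CPM in controls and 0.43 CPM in mutants, beside 154 CPM in controls at A1. Pgm, Pgi and UGP (phosphoglucomutase, glucose-6-phosphate isomerase and UDP-glucose pyrophosphorylase) had the smallest p-values. Their mean effects over 7 stages were -1.91 (SE 0.05), -1.26 (SE 0.05) and -1.15 (SE 0.05) on the log2 scale. At A6 Pgm had a control mean of 256 ± 19.2 CPM and a mutant mean of 53.4 ± 2.64 CPM, and UGP means of 405 ± 66.7 and 95.7 ± 5.72 CPM (mean ± SD, n = 3). At P4, where Tps1 and CG5171 were higher in mutants, Pgm was lower at 67.3 ± 7.48 CPM beside 228 ± 20.5 CPM.

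Other sugar transporters and the hormones of blood sugar gave few calls. Of 7 listed sugar transporters 6 were in the table, and none was called at any stage. The mutant libraries at P1 ranged from 0 to 8.58 CPM for Glut3, from 0.27 to 15.5 CPM for sut3 and from 0 to 52.5 CPM for sut4. Group means of sut2 were 0.11 to 4.49 CPM. Such spread and low counts limit what the lack of calls can show. Among the 6 transporters, sut1 had the smallest adjusted p of the mean effect (log2 fold change 0.19, SE 0.05, adjusted p = 0.0174). Of 9 listed hormones and regulators, 1 was lower at P2, beside 8.79% of all genes lower and 11.6% called. That count is near the share of all genes. At A6, 2 were lower and 1 higher, beside 5.28% of all genes lower and 11.4% called in either direction. None was called at the other 5 stages. The gene lower at P2 was sug, a transcription factor of the sugar response, with a control mean of 32.3 ± 6.49 CPM and a mutant mean of 17.7 ± 1.68 CPM. At A6 the lower genes were AkhR, the receptor of the hormone that mobilises stored sugar and fat, and sug, and the higher one was bigmax, a partner of the sugar sensor Mondo. At A6 AkhR stood at 52.5 ± 5.78 CPM in the control group beside 19.04 ± 0.80 CPM in the mutant group, and its mean effect over 7 stages was -0.35 (SE 0.06, adjusted p = 1.5e-04).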

How the data were processed

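Whole-fly RNA of 42 libraries was analysed, grouped by the genotype and time point labels into 14 groups of 3. Per the submitters' processing notes, build dm6 was used with STAR 2.7.0f, RSEM 1.3.1, cutadapt 1.16 and DESeq2 1.22.2. No annotation release or strand setting is given in the sources used here. The authors deposited estimated counts per gene, which were whole numbers already, a normalized signal (counts divided by a factor per gene and library), FPKM and log-scale values. The counts were tested, the deposited signal supplied an alternative scaling, and the deposited FPKM values served only to compare genes. The log-scale values and the sample sheet were not used here. No column of values lacked a sample (0 columns).

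Tests used edgeR 4.0.16 in R 4.3.3 with limma 3.58.1: 1 fit of 14 groups with TMM scaling, filterByExpr and the robust quasi-likelihood test (28 residual degrees of freedom). P-values were adjusted by Benjamini-Hochberg over 13672 genes within each comparison. The script was tested on simulated data. Library totals of 4308848 to 7737140 counts limit precision for genes of a few CPM, here Tret1-2. Replicates were compared by chi-square: the statistic divided by the number of genes was 2.77 to 67.5 over 42 pairs, above sampling noise, and each library counts as 1 sample.

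The members, lists and naming rule were chosen with earlier results of these data known. Named were the 7 members, ERR and the 2 genes most like each member (mean of at least 5 CPM). Up to 3 genes of each further list were named by adjusted p of the mean effect. Named after their values were seen were sug and bigmax at A6 and P2, the called members of the tissue lists, CG12374 and osk. The same holds for Yp1, Yp2, Cp15, sut3 and sut4. Positions on the control course used log2 CPM (prior count 2) of 6619 genes. These were called in any control step with a change of at least 1 log2 unit there. Each control library was left out of its own stage mean. Annotation was Ensembl release 115, BDGP6.54, in dm6 coordinates, in which 99.4% of gene IDs were found. Alternatives were DESeq2's size factors, DESeq2 1.42.0, the deposited scaling factors, no filter, the compared libraries alone, each library left out, and, chosen after seeing the data, leaving out mutant P1 replicate 1 at the other stages.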

Additional observations from a re-analysis of the deposited data

Results flagged for a closer look

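The genotype difference varied among the 7 stages by an interaction test on 6 degrees of freedom (edgeR's quasi-likelihood test, Benjamini-Hochberg adjusted) for 4 genes. The adjusted p was 2.7e-07 for CG5177, which was lower in mutants at P2. It was 7.16e-06 for CG5171, which was higher in mutants at P4 and lower at A1 and A6. It was 0.0127 for Tps1, which was higher at P4 and had a mean 1.52-fold lower, uncalled, at A6. It was 0.0266 for Tret1-1, which was lower at P2. For CG5171 the effect at A1 and A6 also differed from that at P1 to P4 (adjusted p = 3.06e-07). The 3 stronger interactions kept their calls in all 42 fits that left out a library and in the 4 other settings run for them, and that of Tret1-1 in 37 and 2.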

How the results depend on the processing

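No result reversed. Under each alternative run, the number of the 7 genes called stayed within 1.5 times the reported one at WPP, at P3, in the 5 control steps from WPP to A1, for the mean effect and for the interaction. DESeq2's size factors and DESeq2 each gave 3 at P2, with CG5171 added (reported 2). DESeq2 gave 1 at P1 (reported 0) and 2 at A6 (reported 1). DESeq2's size factors and the deposited scaling factors each gave 2 at A6 and 0 from control A1 to A6 (reported 1). With no filter on low counts, 1 gene was called at P4 (reported 2). With the 6 compared libraries alone, 1 was called at P2, 0 at P4, 0 at A1, 3 at A6 and 2 from control A1 to A6. Leaving out 1 library gave 1 to 2 at P2, 1 to 2 at P4, 0 to 1 at A1, 0 to 2 at A6, 0 to 2 from control A1 to A6, and 1 to 2 for A1 and A6 minus P1 to P4. The 2 at A6 came without mutant P1 replicate 1, the 0 without mutant A6 replicate 2. The cause of these shifts was not tested. No paired analysis was possible because the labels give no replicate numbers; those printed follow the order of the samples within a group and only name libraries. Depth limits Tret1-2 most, with 46 counts in all over the 3 control libraries of WPP. Mutant P1 replicate 1, with 4 counts of Tret1-2, had 5916949 counts in total and 1.89 CPM of the 8 testis transcripts.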
